A study of Mus musculus with 6 samples.

Results

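The expression of 10 genes of lipid transport, uptake and storage was followed in primary mouse fibroblast cultures kept with the chemokine CXCL3 or without it. The 10 genes encode the apolipoproteins Apoe, Apoc1, Apoc2 and Apod, the lipoprotein lipase Lpl, the lipid droplet proteins Plin2 and Plin3, the fatty acid receptor Cd36 and the fatty acid binding proteins Fabp4 and Fabp5. They were taken by name from a table of 51912 genes, and the list was selected on measured values, the differences in expression between the groups of these same libraries. The differences given here therefore describe these genes, and no count over the list is evidence of its own. RNA sequencing gave 3 control libraries and 3 libraries of cultures treated with CXCL3 for 48 h, all of cells labelled as primary fibroblasts from animals aged 6 weeks. The labels used here give no strain, genotype, sex, organ of origin, dose of CXCL3 or composition of the control medium, and do not say whether replicates were separate animals or cultures, so that p-values may measure technical spread alone. Values are TPM, a transcript abundance scaled by transcript length and by the total of the library. They can be compared between genes but keep no trace of read depth, which is therefore unknown, and no counting interval is given.

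Apolipoproteins are the protein part of lipoprotein particles. They are bound by receptors of the LDL receptor family and help cells to take up lipid or release it. Lipoprotein lipase, with the product of Apoc2 as its cofactor, frees fatty acids from the triglyceride of these particles, and Cd36 brings fatty acids into the cell, where binding proteins such as Fabp4 and Fabp5 carry them. Surplus fatty acid is stored as triglyceride in lipid droplets, which Plin2 and Plin3 coat. Macrophages are a major source of Apoe outside the liver and turn into foam cells when they load lipid. In macrophages the gene cluster of Apoe, Apoc1, Apoc4 and Apoc2 is a known target of the liver X receptors (LXR), and Plin2, Cd36 and Fabp4 are known targets of the peroxisome proliferator-activated receptors (PPAR).

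The cultures held abundant macrophage transcripts besides those of fibroblasts. The fibroblast genes Col1a1 (567 to 973 TPM over the 6 libraries) and Dcn (283 to 328 TPM) were high and Pdgfra was at 9.63 to 16.5 TPM, while Lum did not exceed 0.50 TPM and Dpt was listed at 0 in all libraries. Lyz2, the lysozyme gene of macrophages, was at 13115 to 16166 TPM, Adgre1 at 363 to 507 TPM and Cd68 at 276 to 319 TPM. Of the 10 adipocyte markers listed, 9 stayed below the level needed for testing, among them Adipoq (at most 0.11 TPM) and Lep (0 in all libraries). Of the 7 Schwann cell markers 6 did, among them Sox10 (at most 0.08 TPM). In such a mixture, fewer cells of a type and less RNA per cell cannot be told apart. Controls 2 and 3 stood apart from the other 4 libraries on the first principal component (52.9% of the variance), in the same way as their deviations were related to transcript length, so differences are also given against control 1 and against controls 2 and 3 where they diverge.

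Promoters are shown of the 4 members that were tested, lay apart between the groups and had a sequence. Apoe and Apoc2 lay below controls and Plin2 and Cd36 above. RefSeq held promoter sequences for 6 of the 10 members, in 8 entries of 300 bases each (build GRCm38.p6, 250 bases before to 50 after a start site). No entry was matched for Apoc1, Lpl, Fabp4 or Fabp5. All 4 sequences below are on the minus strand and are written 5′ to 3′. Capitals mark exact matches, on either strand, to the nuclear receptor core AGGTCA, the E-box CACGTG (the same on both strands), the GC box GGGCGG or the TATA motif TATAAA.
Apoe, chr7:19699139-19699438: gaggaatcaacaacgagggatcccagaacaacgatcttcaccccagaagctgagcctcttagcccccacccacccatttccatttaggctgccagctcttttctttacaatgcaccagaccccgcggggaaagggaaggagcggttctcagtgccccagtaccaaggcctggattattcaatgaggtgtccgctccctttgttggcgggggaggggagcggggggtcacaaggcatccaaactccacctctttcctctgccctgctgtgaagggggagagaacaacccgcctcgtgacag
Apoc2, chr7:19677892-19678191: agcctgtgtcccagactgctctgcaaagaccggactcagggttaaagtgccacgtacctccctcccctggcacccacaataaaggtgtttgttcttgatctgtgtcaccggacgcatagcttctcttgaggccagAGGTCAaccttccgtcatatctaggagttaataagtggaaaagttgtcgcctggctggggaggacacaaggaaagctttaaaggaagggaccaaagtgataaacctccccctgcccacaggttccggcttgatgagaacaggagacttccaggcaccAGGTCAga
Plin2, chr4:86670010-86670309: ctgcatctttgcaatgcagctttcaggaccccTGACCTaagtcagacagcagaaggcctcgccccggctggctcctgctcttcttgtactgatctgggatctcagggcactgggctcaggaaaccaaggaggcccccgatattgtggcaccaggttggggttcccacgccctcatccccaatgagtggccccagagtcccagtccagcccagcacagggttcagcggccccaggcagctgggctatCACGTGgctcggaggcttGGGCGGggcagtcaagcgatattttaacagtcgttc
Cd36, chr5:17835847-17836146: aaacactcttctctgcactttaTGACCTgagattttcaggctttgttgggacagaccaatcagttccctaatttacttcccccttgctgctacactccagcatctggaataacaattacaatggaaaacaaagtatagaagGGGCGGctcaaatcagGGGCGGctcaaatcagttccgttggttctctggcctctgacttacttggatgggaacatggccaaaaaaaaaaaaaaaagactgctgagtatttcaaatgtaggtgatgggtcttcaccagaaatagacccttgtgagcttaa
The Apoe promoter at this start held none of the 4 motifs. Apoe has 3 entries, of which another holds the TATA motif 2 times, overlapping, and the third holds none. The Apoc2 promoter held the core AGGTCA 2 times and the Plin2 and Cd36 promoters 1 time each, where 16.3% of all 32851 promoter entries of this length hold it. Plin2 also held 1 E-box, which 7.15% of entries hold and which begins 4 bases before its start, and 1 GC box. Cd36 held 2 GC boxes, each in a copy of an 18-base stretch that occurs 2 times with the copies overlapping. This Cd36 entry lies inside the annotated gene, which spans 17781690 to 17888801, so its start is not the outermost one. A GC box was present in 35.7% of entries and the TATA motif in 13.6%. Of the members with an entry that is not shown, Apod held none of the 4 motifs. Plin3 held 3 matches to the GC box and none to the core AGGTCA. The members were selected on their differences, so nothing is read from how many hold a motif. Neither paired motif of nuclear receptors was found in any of the 8 entries, namely direct repeats of AGGTCA with 1 base between them (N, any base; in 0.0396% of entries) or 4 bases between them (in 0.0152%). Each such repeat would also count as matches to the core. Such matches describe the letters in these windows and show no binding.

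Apoe, the main apolipoprotein made outside the liver, was the most abundant of the 10 genes and fell with CXCL3. Its level was 882, 1012 and 839 TPM in controls 1, 2 and 3 and 514, 529.9 and 524 TPM in CXCL3 libraries 1, 2 and 3. Every CXCL3 library lay far below every control, and the CXCL3 libraries lay within a few per cent of each other. The mean went from 910.8 ± 89.9 to 522.8 ± 8.14 TPM (SD, n = 3 each), 1.74-fold lower, with a difference of -0.80 ± 0.08 (SE) in log2(TPM + 1) and an adjusted p of 0.0293 by limma over all 13139 genes tested. The difference was as large against control 1 alone (-0.75) as against controls 2 and 3 (-0.82). Apoe ranked 199th in mean TPM among all genes of the table. It lies on chromosome 7 from 19696109 to 19699188 on the minus strand of GRCm38 (ENSMUSG00000002985). The call was lost without control 3 (limma, adjusted p = 0.10), without any one CXCL3 library (0.175 to 0.227), when scaled by median of ratios (0.127), when all genes were tested unfiltered (0.107) and with an untrended eBayes prior (0.117), and the direction was kept in all 20 alternative settings.

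**Figure D1:**
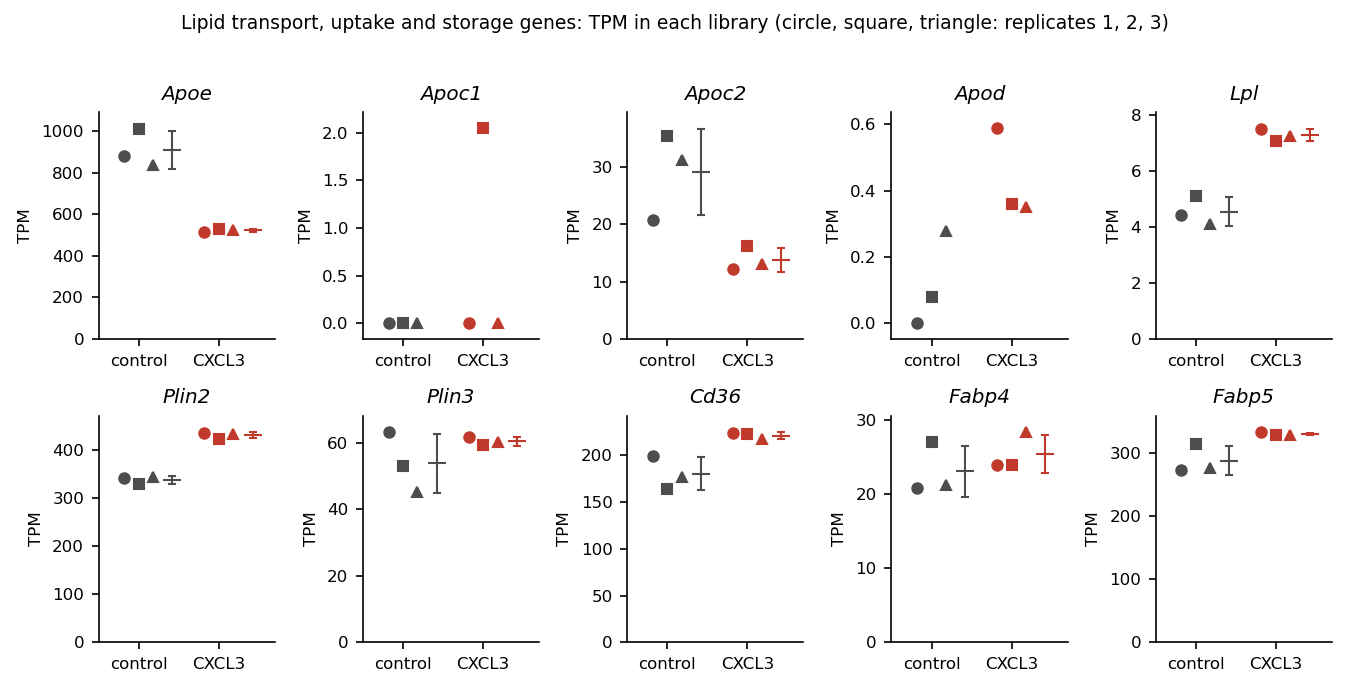
TPM of each of the 10 genes in each library, on linear axes of their own, with the mean and SD of 3 libraries beside the points of the 8 genes tested; Apoc1 and Apod have no bar because they stayed below the filter. The 3 CXCL3 libraries of Apoe sit between 514 and 529.9 TPM, below all controls, and those of Plin2 between 424 and 436 TPM, above all controls.

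Apoe was the only one of the 8 members tested that passed the threshold, an adjusted p of 0.05, where 0.16% of all genes tested passed in either direction, 0.129% as lower and 0.0304% as higher. At an unadjusted p under 0.05 stood 6 of the 8, 4 higher and 2 lower, where 11.6% of all genes did (5.93% higher and 5.65% lower). The other 2 members, Apoc1 and Apod, did not reach 1 TPM in at least 3 libraries and were not tested. The groups did not overlap for 6 of the 8, Apoe and Apoc2 below controls and Lpl, Plin2, Cd36 and Fabp5 above. Over all genes tested the groups did not overlap for 17.2%, 9.31% lower and 7.92% higher. Because the list was made with these values known, nothing is read from its larger share. The median difference of the 8 was 0.19 in log2(TPM + 1), with 6 positive and 2 negative, beside a median of 0.07 over all genes. Under median-of-ratios scaling the median over all genes was -0.0047.

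Apoc2, which encodes the activator of lipoprotein lipase, lay below controls without passing. Its level was 20.8, 35.3 and 31.3 TPM in controls 1, 2 and 3 and 12.2, 16.2 and 13.0 TPM in the CXCL3 libraries. The groups did not overlap, but control 1 stood nearer to the CXCL3 libraries than the other controls did. The mean was 29.1 ± 7.52 TPM in the controls and 13.8 ± 2.09 TPM with CXCL3, a difference of -1.0 ± 0.20 in log2(TPM + 1) (limma, adjusted p = 0.157). The difference was -0.57 against control 1 and -1.22 against controls 2 and 3, so its size depended on which controls were used. Apoc2 passed without control 1 (limma, adjusted p = 0.0044) and with library weights (0.0282). In these settings 4254 and 1446 of the 13139 genes tested passed. Apoc2 lies on chromosome 7 from 19671579 to 19677941, and the predicted protein-coding gene Gm44805 overlaps it on the same strand, from 19671584 to 19681423. Gm44805 was at 4.31, 4.33 and 5.46 TPM in the controls and 2.70, 1.81 and 2.58 TPM with CXCL3 (-0.77 ± 0.17, limma, adjusted p = 0.196). The division of reads between these overlapping genes is uncertain.

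Apoc1, which encodes a small apolipoprotein of the same cluster, was listed at 0 in all controls and in CXCL3 libraries 1 and 3, and at 2.05 TPM in CXCL3 library 2. It lies on chromosome 7 from 19689481 to 19692660. A value of 0 can be a failed estimate. Of 82 cytosolic ribosomal protein genes, only Rpl10l and Rpl3l were listed at 0 in 5 or more libraries, and none of the 8 with a longest transcript under 600 bases was, a length class that includes Apoc1 (532 bases). The median of their mean TPM was 1129 for all 82 and 1832 for the 8. Genes so abundant cannot tell a failed estimate from absence for Apoc1, which was left undecided. Apoc4, which lies between Apoc1 and Apoc2, was at 0.07, 0.21 and 0.19 TPM in the controls and 0.23, 0.87 and 0.65 TPM with CXCL3. Its CXCL3 libraries lay above all controls, but every value was under 1 TPM and it was not tested. Apoc4 (19678083 to 19681479) also overlaps Gm44805 on the same strand, so the division of reads is uncertain there too. Apod, a lipocalin that carries small lipids and is common in fibroblasts and glia, was at 0, 0.08 and 0.28 TPM in the controls and at 0.59, 0.36 and 0.35 TPM with CXCL3. The groups did not overlap, but all 6 values were under 1 TPM and no fold is given. Apod lies on chromosome 16 from 31296192 to 31314808.

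Around Apoe, 3 of the 8 genes tested lay below controls in every CXCL3 library, Apoe, Apoc2 and Gm44805, while the 5 flanking genes overlapped. Over all genes tested 9.31% lay below in this way, Apoe and Apoc2 were selected on this difference, and Gm44805 overlaps Apoc2. Tomm40, a subunit of the mitochondrial import pore whose start lies 16.2 kb before that of Apoe, was at 78.0 ± 5.39 TPM in the controls and 73.8 ± 2.71 TPM with CXCL3 (limma, adjusted p = 0.629). Clptm1, 34.2 kb beyond Apoe in the direction of its transcription, was at 93.2 ± 13.6 and 97.1 ± 6.02 TPM (0.782). The adhesion genes Bcam (11.0 ± 0.85 and 11.8 ± 0.76 TPM) and Nectin2 (96.1 ± 10.1 and 98.8 ± 2.88 TPM) and the NF-kappaB subunit gene Relb (27.7 ± 1.40 and 27.7 ± 2.22 TPM) were alike in this. The 95% intervals of these 5 flanking genes lay between -0.26 and 0.37 in log2(TPM + 1), above the interval of Apoe (-0.98 to -0.61).

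**Figure D2:**
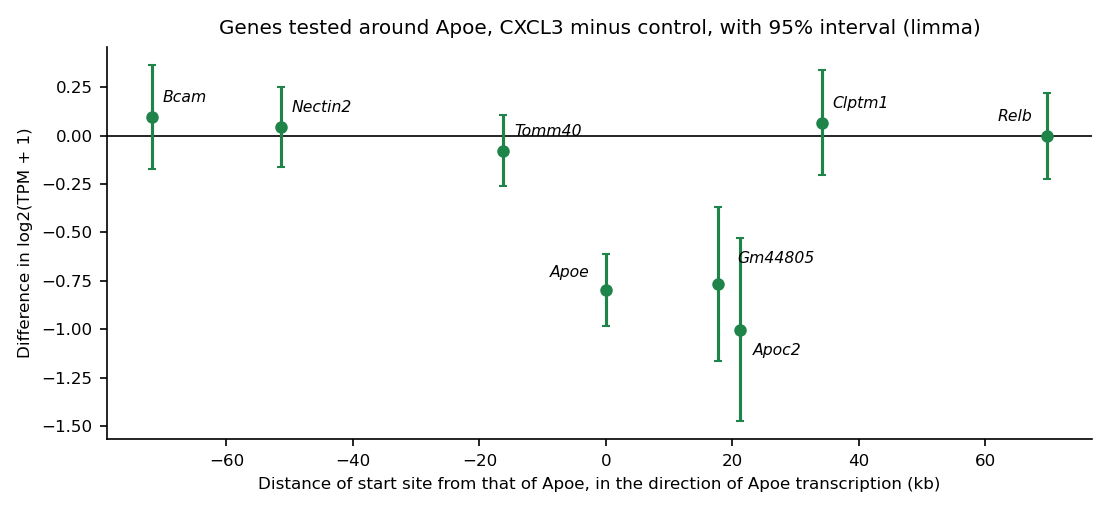
Difference in log2(TPM + 1), CXCL3 minus control, of the 8 genes tested around Apoe, against the distance of their start sites from that of Apoe in kb. Points are limma estimates and bars 95% intervals; Apoe, Gm44805 and Apoc2 lie below 0 and the 5 flanking genes have intervals that include 0.

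Plin2, which coats lipid droplets and is a common marker of lipid loading, lay above controls in every CXCL3 library. Its level was 343, 329 and 344 TPM in the controls and 436, 424 and 434 TPM with CXCL3. Both groups were tight, and the lowest CXCL3 library exceeded the highest control by a wide gap. The mean was 338.6 ± 8.0 and 431 ± 6.10 TPM, 1.27-fold higher, with a difference of 0.35 ± 0.06 in log2(TPM + 1) that did not pass over all genes (limma, adjusted p = 0.110). It was alike against control 1 (0.33) and against controls 2 and 3 (0.36). The difference of Plin2 was smaller under median-of-ratios scaling (0.26, limma, adjusted p = 0.319). It was larger under quantile normalization (0.40) and once the relation to length and GC was taken out (0.38). Plin2 passed with the trend of transcript length and GC content removed (limma, adjusted p = 0.0345), where 43 of all genes passed. It also passed with library weights (0.0225) and without control 1 (0.00538), where 1446 and 4254 of the 13139 genes tested passed. The gene lies on chromosome 4 from 86648386 to 86670060 (ENSMUSG00000028494).

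Plin3, a perilipin that moves between the cytosol and young droplets, did not separate the groups. It was at 63.1, 52.9 and 45.2 TPM in the controls and 61.8, 59.3 and 60.1 TPM with CXCL3, so the controls spanned all CXCL3 values. The difference was 0.18 ± 0.12 in log2(TPM + 1) (limma, adjusted p = 0.508, 95% interval -0.10 to 0.46), and it was -0.06 against control 1 and 0.30 against controls 2 and 3. Plin3 passed without control 1 (limma, adjusted p = 0.0311), where 4254 of the 13139 genes tested passed. Plin2 was 5.43 to 7.61 times as high as Plin3 in controls and 7.05 to 7.22 times with CXCL3, ranges that overlap. The perilipins of adipocytes and muscle, Plin1, Plin4 and Plin5, did not exceed 0.14 TPM in any library. Plin3 lies on chromosome 17 from 56277476 to 56292873.

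Cd36, the receptor that takes up fatty acids and oxidised lipoproteins, was at 199, 164 and 177 TPM in the controls and 223, 222 and 217 TPM with CXCL3. The CXCL3 libraries lay above all controls, with control 1 the nearest to them. The mean was 180.0 ± 17.9 and 221 ± 3.45 TPM (0.30 ± 0.08 in log2(TPM + 1), limma, adjusted p = 0.282). The difference was 0.15 against control 1 and 0.37 against controls 2 and 3. It was 0.21 under median-of-ratios scaling, 0.20 once the relation to length and GC was taken out, and 0.34 under quantile normalization. Cd36 passed without control 1 (limma, adjusted p = 0.00623) and with library weights (0.0331), where 4254 and 1446 of the 13139 genes tested passed. Lpl was scarce, at 4.43, 5.12 and 4.11 TPM in the controls and 7.52, 7.09 and 7.27 TPM with CXCL3. All CXCL3 libraries lay above all controls, 1.60-fold in the mean (4.55 ± 0.52 and 7.29 ± 0.22 TPM; 0.58 ± 0.13 in log2(TPM + 1), limma, adjusted p = 0.203). Lpl differed from control 1 (0.61) as much as from controls 2 and 3 (0.57). Its difference was 0.51 under median-of-ratios scaling, 0.46 under quantile normalization and 0.47 once the relation to length and GC was taken out. In the same settings as Cd36 it passed too (limma, adjusted p = 0.0143 without control 1 and 0.0389 with library weights). Its level is low enough that this scale understates the difference (0.67 with a pseudocount of 0.1). Cd36 lies on chromosome 5 from 17781690 to 17888801 and Lpl on chromosome 8 from 68880491 to 68907448.

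Fabp5, the fatty acid carrier of skin cells and macrophages, was at 273, 315 and 277 TPM in the controls and 333, 329 and 329 TPM with CXCL3. The groups did not overlap, although control 2 came close. The mean was 288 ± 23.2 and 331 ± 2.23 TPM (0.20 ± 0.07 in log2(TPM + 1), limma, adjusted p = 0.378). The difference was 0.28 against control 1 and 0.16 against controls 2 and 3. It was 0.12 under median-of-ratios scaling (limma, adjusted p = 0.635) and 0.14 once the relation to length and GC was taken out. Under quantile normalization it was 0.27. Fabp4, the carrier of adipocytes and macrophages, lies near Fabp5 on chromosome 3 and was much lower, at 20.9, 27.1 and 21.3 TPM in the controls and 24.0, 23.9 and 28.4 TPM with CXCL3. These groups overlapped (0.14 ± 0.13, adjusted p = 0.608 by limma, 95% interval -0.16 to 0.44). The difference of Fabp4 was 0.27 against control 1 and 0.07 against controls 2 and 3. It was 0.25 without control 2, 0.09 without control 3 and 0.06 without CXCL3 library 3. Fabp5 was 11.6 to 13.0 times as high as Fabp4 in controls and 11.6 to 13.9 times with CXCL3, so the ratio of the pair did not separate the groups. Fabp5 spans 10012548 to 10016607 and Fabp4 spans 10204088 to 10208576 on chromosome 3.

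**Figure D3:**
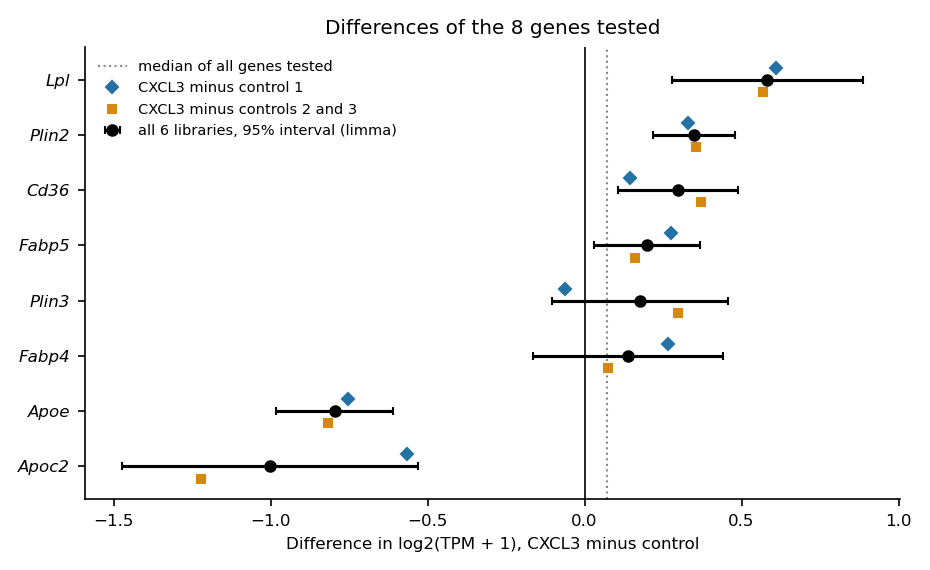
Difference in log2(TPM + 1), CXCL3 minus control, for the 8 genes tested: black points with 95% intervals (limma, all 6 libraries), diamonds against control 1 alone and squares against controls 2 and 3. Apoe, Lpl and Plin2 have diamonds and squares close together, while those of Apoc2, Cd36 and Plin3 lie apart.

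The order of the levels changed little between groups. Over all libraries the mean was 716.8 TPM for Apoe, 385 for Plin2, 309.5 for Fabp5, 200.3 for Cd36, 57.1 for Plin3, 24.3 for Fabp4, 21.5 for Apoc2 and 5.92 for Lpl. Fabp4 and Apoc2 overlapped in their ranges and changed places, Apoc2 having the higher mean in controls and Fabp4 with CXCL3. Plin2 and Fabp5 overlapped in their ranges over all libraries, yet Plin2 was the higher of the pair in each library, 1.05 to 1.32 times. Apoe stood 2.44 to 3.07 times as high as Plin2 in controls and 1.18 to 1.25 times with CXCL3. The 10 genes together summed to 1739 to 1940.5 TPM in the controls and 1612 to 1614.5 TPM with CXCL3. The mean of Apoe alone differed by more than the mean of this sum did.

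Macrophage markers differed in both directions, more of them below controls than above, and many overlapped. Of 20 markers 19 were tested, of which 12 were negative and 7 positive, with groups that did not overlap for 8 below controls and 2 above, where 9.31% and 7.92% of all genes tested did so. The complement gene C1qa (288.9 ± 38.6 to 167 ± 5.46 TPM) and the membrane gene Ms4a7 (173 ± 13.1 to 114.5 ± 3.54 TPM) fell and passed (limma, adjusted p = 0.0493 each), while the mannose receptor gene Mrc1 (11.5 ± 1.80 and 17.0 ± 1.02 TPM) and Gpnmb (725 ± 114 and 864 ± 6.80 TPM) lay above controls. The other markers wholly below controls were Lyz2, C1qb, C1qc, Trem2, Tyrobp and Fcer1g. Among those that overlapped were Adgre1 (439 ± 72.3 and 450 ± 12.1 TPM), Cd68 (295 ± 21.6 and 284 ± 6.80 TPM), Csf1r (94.7 ± 13.6 and 101 ± 1.86 TPM) and Cd14 (268 ± 12.1 and 255 ± 4.86 TPM). The summed level of the 20 markers was 17568 to 20750 TPM in the controls and 17202 to 17293 TPM with CXCL3, and without Lyz2, which holds most of it, 4309 to 4584 and 3986 to 4092 TPM. Set against this sum without Lyz2, Apoe was at 20.0%, 23.5% and 18.3% in controls and 12.6%, 13.0% and 13.2% with CXCL3. Apoc2 was at 0.47% to 0.82% and 0.30% to 0.39%. The groups of Apoe and Apoc2 stayed apart on this measure. The sum varied too little between libraries to close gaps of their size, so this adds nothing to the differences in TPM. Plin2 was at 7.5% to 7.75% and 10.4% to 10.9%, Cd36 at 3.8% to 4.51% and 5.43% to 5.46%, and Fabp5 at 6.05% to 7.31% and 8.05% to 8.27%. The sum without Lyz2 was lower in every CXCL3 library than in any control. For genes already above controls the ratio could therefore only widen the gap. The part of macrophage content in these differences was not tested. Fibroblast markers also differed. The collagen gene Col3a1 fell from 407 ± 56.5 to 195.5 ± 7.91 TPM and passed (limma, adjusted p = 0.0293), and Dcn lay wholly below controls (316 ± 14.6 and 285 ± 2.80 TPM). S100a4 (609.6 ± 74.4 and 770.2 ± 24.3 TPM) and Vim (1563 ± 145 and 1689 ± 19.0 TPM) lay wholly above, and the other 6 of the 10 fibroblast markers tested overlapped. Over all genes tested 9.31% lay wholly below and 7.92% wholly above. The summed fibroblast markers, most of which is Fn1 and Vim, overlapped at 5699 to 7727 TPM in the controls and 6389 to 6738 TPM with CXCL3. The part of fibroblast content in the differences of the lipid genes was not tested.

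**Figure D4:**
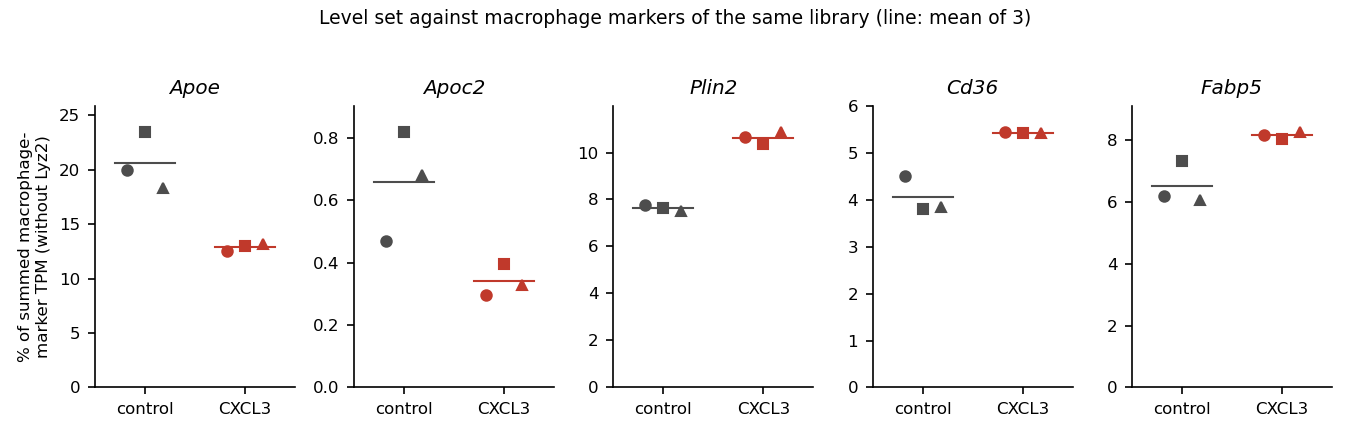
Level of 5 members as a percentage of the summed TPM of 19 macrophage markers (all but Lyz2) in the same library, on linear axes from 0; lines are means of 3 libraries. Apoe and Apoc2 are lower with CXCL3 on this measure, and Plin2, Cd36 and Fabp5 higher, with no overlap of the groups. The marker sum was itself lower in every CXCL3 library, which could only widen the gap of genes already above controls. It also varied too little to close the gaps of Apoe and Apoc2.

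Of 145 further genes of lipid handling, 102 were tested and 0 passed in either direction by limma. At an unadjusted p under 0.05 there were 9 higher and 8 lower, beside 5.93% and 5.65% of all genes tested. Their groups did not overlap for 12 higher and 13 lower (7.92% and 9.31% over all genes), and 61 differences were positive and 41 negative. Some genes stand in more than one of the lists that follow, among them Nr1h3 and Pltp.

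Among proteins that receive or bind lipoproteins, values lay on both sides. Lrpap1, a chaperone of LDL receptor family members, was at 160 ± 11.7 TPM in the controls and 126 ± 2.07 TPM with CXCL3 (-0.34 ± 0.07, limma, adjusted p = 0.177). Lrp1, a large receptor for Apoe and the most abundant gene of that list (681 ± 88.7 and 734 ± 17.5 TPM), and Vldlr (27.2 ± 9.42 and 35.7 ± 2.02 TPM) had overlapping groups. Msr1, the type A scavenger receptor of macrophages, was at 105, 71.4 and 72.6 TPM in the controls and 155, 140 and 127 TPM with CXCL3 (0.77 ± 0.16, adjusted p = 0.157 by limma), so that all CXCL3 libraries lay above. Cxcl16, a chemokine that also binds oxidised lipoproteins, lay below (168 ± 3.96 and 131 ± 4.73 TPM), and Marco (440.0 ± 58.9 and 457 ± 8.58 TPM) and Olr1 (165 ± 41.6 and 196 ± 9.60 TPM) overlapped. Of the other apolipoproteins 5 of 16 were tested; Apoa2 was at 2.26, 2.94 and 1.22 TPM in the controls and 0.27, 0.55 and 1.16 TPM with CXCL3, and Apol9b at 29.6 ± 0.74 and 35.9 ± 0.73 TPM. Clusterin, Clu, was at 3.72 ± 0.60 and 2.95 ± 0.34 TPM.

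Of 11 partners and relatives of lipoprotein lipase 7 were tested, of which 0 lay wholly above controls and 3 wholly below (7.92% and 9.31% of all genes tested). Angptl4, a secreted inhibitor of the enzyme and a known PPAR target, was at 46.9, 48.9 and 50.3 TPM in the controls and 44.5, 44.7 and 43.5 TPM with CXCL3 (-0.13 ± 0.07, limma, adjusted p = 0.472). The lipase maturation gene Lmf1 (20.9 ± 0.86 and 18.0 ± 1.76 TPM) and the phospholipid transfer gene Pltp (40.6 ± 0.73 and 34.9 ± 2.74 TPM) also lay below controls in every library. Gpihbp1, which anchors the enzyme on capillary cells, was listed at 0 in all libraries. Lipa, the lysosomal lipase, overlapped (99.96 ± 14.04 and 113 ± 4.23 TPM).

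Droplet genes other than Plin2 showed small differences of both signs. Of 14 genes of droplet coat and biogenesis 7 were tested, with a median difference of -0.06 in log2(TPM + 1). Hilpda, an inhibitor of droplet lipolysis, was at 77.1 ± 3.70 and 81.6 ± 3.41 TPM, the seipin gene Bscl2 at 64.4 ± 2.98 and 56.6 ± 1.7 TPM, and Ldah at 47.3 ± 7.95 and 56.7 ± 1.75 TPM. Of these the groups of Bscl2 and Ldah did not overlap. The triglyceride lipase gene Pnpla2 overlapped between groups (31.3 to 38.7 and 32.3 to 35.6 TPM), as did its co-activator Abhd5 (39.9 ± 3.78 and 41.3 ± 0.68 TPM). Dgat1, which makes triglyceride, was at 37.5 ± 3.65 and 31.0 ± 0.09 TPM and lay below in every library, and Soat1, which makes cholesteryl ester, overlapped (91.1 ± 27.5 and 112 ± 13.5 TPM).

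Among fatty acid carriers and enzymes, Fabp7, the brain-type binding protein, was at 13.9, 15.9 and 15.8 TPM in the controls and 22.5, 26.7 and 21.1 TPM with CXCL3 (0.59 ± 0.12, limma, adjusted p = 0.157). It lay above in all CXCL3 libraries, while the retinoic acid carrier Crabp2 (93.4 ± 8.34 and 67.2 ± 1.95 TPM) lay below. Fabp3, the heart-type protein, overlapped (38.0 ± 2.69 and 39.97 ± 3.04 TPM). Cpt1a, the gate of mitochondrial fatty acid oxidation, was at 59.1, 36.5 and 39.3 TPM in the controls and 68.0, 68.7 and 60.9 TPM with CXCL3 (0.57 ± 0.17, limma, adjusted p = 0.313), with control 1 close to the CXCL3 range. Acsl5, which activates fatty acids, lay above (54.8 ± 5.37 and 63.1 ± 1.43 TPM), and Acsl4 overlapped (89.7 ± 21.2 and 119 ± 5.29 TPM).

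The receptors behind the known LXR and PPAR targets were measured as well. Nr1h3, which encodes LXR alpha, was at 3.94, 3.45 and 2.99 TPM in the controls and 6.75, 4.35 and 6.92 TPM with CXCL3 (0.63 ± 0.19, limma, adjusted p = 0.313). Its groups did not overlap, with CXCL3 library 2 the nearest to the controls. Nr1h2, which encodes LXR beta, was far more abundant and overlapped between the groups (65.3 ± 8.96 and 66.5 ± 1.59 TPM, 0.03 ± 0.11, limma, adjusted p = 0.880). Of 11 LXR target genes listed beside Apoe, 6 differences were positive and 5 negative. Wholly above controls lay 2 genes, Nr1h3 itself and the sterol exporter gene Abcg1 (3.33 ± 0.31 and 4.63 ± 0.47 TPM). Wholly below lay 2, Pltp and Smpdl3a (the latter at 141 ± 3.46 and 123 ± 0.58 TPM). Over all genes tested 7.92% lay wholly above and 9.31% wholly below. The PPAR genes Pparg and Ppara did not exceed 0.49 and 0.28 TPM, and Ppard was at 24.8 ± 5.04 and 30.4 ± 1.07 TPM with overlapping groups. The transcription factor genes Cebpb (143 ± 21.6 and 218 ± 29.6 TPM; 0.60 ± 0.13, limma, adjusted p = 0.196) and Klf4 (38.1 ± 5.88 and 47.0 ± 2.34 TPM) lay above controls in every CXCL3 library.

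**Figure D5:**
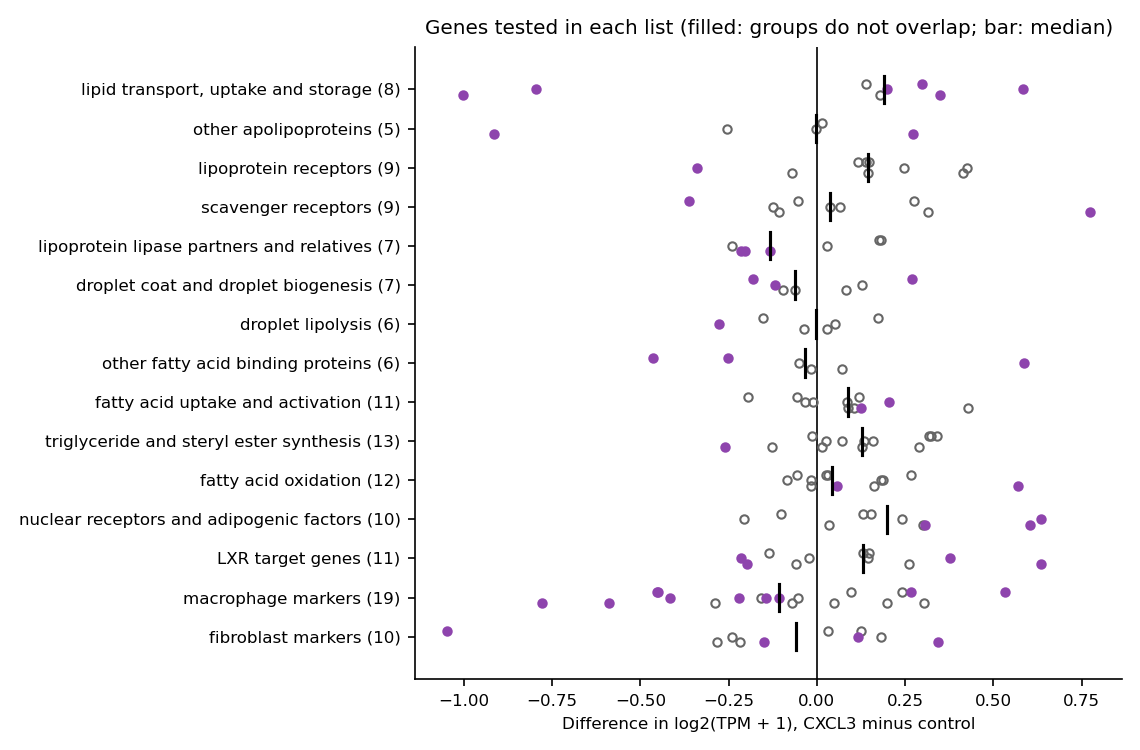
Difference in log2(TPM + 1), CXCL3 minus control, of each gene tested in each list, with the number tested in brackets; filled points are genes whose groups do not overlap and bars are medians. The 8 lipid transport, uptake and storage genes span -1.0 to 0.58, and the medians of the other lists lie between -0.13 and 0.20.

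Genes with patterns like those of Apoe and Plin2 were sought among 9453 protein-coding genes with a mean of at least 5 TPM. Over the 6 libraries Pearson's r of log2(TPM + 1) with Apoe was highest for the autophagy receptor gene Sqstm1 (r = 0.999), Ubtd1 (0.998), Nxn (0.991) and Phyhd1 (0.990). With Plin2 it was highest for the quinone reductase gene Nqo1 (0.997), Serpinb9b (0.996), Il1rn (0.994) and the stress transcription factor gene Atf3 (0.993). These values describe 6 libraries that share the division into groups, and genes with a group difference score high for that reason alone. The likeness is of shape, not of size, since Sqstm1 differed by -0.19 in log2(TPM + 1) and Apoe by -0.80.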

How the data were processed

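RNA sequencing was applied to 6 libraries of primary mouse fibroblasts, 3 control and 3 treated with CXCL3, grouped by the treatment label. The deposited table holds the TPM of 51912 genes, and 0 of its columns belong to other samples. Per the submitters' processing notes the tools were fastp, HISAT and RSEM and the build GRCm38.p5. The annotation, strand setting and depth were not given in the sources used here. Each column sums to between 984281 and 986705 TPM, and a TPM moves with every other gene's.

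Identifiers were matched to GENCODE M21 (GRCm38), which gave a symbol for 51719. The test, limma 3.58.1 (R 4.3.3), used log2(TPM + 1) of genes that reached 1 TPM in 3 or more libraries (eBayes with trend, two-sided, Benjamini-Hochberg over 13139 genes, threshold 0.05). An exact permutation test of 3 against 3 libraries cannot go below p = 0.1 and was not used.

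The members, gene lists and cell type markers were chosen with earlier results of these data known. Named are all members, up to 4 genes of smallest p and the most abundant gene of each lipid list, the cluster genes and the 4 genes most like Apoe and Plin2. Markers, Pnpla2, Nr1h2, Pparg, Ppara, other perilipins, Gpihbp1 and Gm44805 were named after their values were seen, and not every gene the rule allows is printed. The alternatives were other pseudocounts, filters, scalings, gene sets, variance estimates, library weights, the replicate block, the length and GC trend, and leaving out libraries.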

Additional observations from a re-analysis of the deposited data

How the results depend on the processing

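Of the 8 members tested, limma called 1 (Apoe), and 0 without the filter, under median-of-ratios scaling and under an untrended eBayes prior (at an unadjusted p under 0.05 stood 7 of the 10 members then tested, 5 of 8 and 5 of 8). It called 5 with library weights, whose estimation stopped before it converged, and 2 after removal of the trend of length and GC. Leaving out 1 library gave 0 to 6 calls. There were 6 without control 1, 1 without control 2, and 0 without control 3 or any one CXCL3 library (5 members at an unadjusted p under 0.05 in each of these). Over all genes limma called 21, and 0 without the filter (1928 at an unadjusted p under 0.05), 4 under median-of-ratios scaling and 1 under the untrended prior. It called 1446 with library weights, 43 after removal of that trend, 4254 without control 1 and 10 without control 2. There were 0 without control 3, CXCL3 library 1 or CXCL3 library 2 (875, 765 and 799 at an unadjusted p under 0.05) and 1 without CXCL3 library 3. Only Plin3 changed sign, to -0.062 without controls 2 and 3, a setting added after the data were seen that leaves 1 control. The other 7 kept their sign in all 20 settings. The causes were not tested. With the replicate number as a block, limma called 1 member (Apoe, adjusted p = 0.0455) and 12 genes in all. Same-numbered libraries had correlations of their deviations of 0.122, -0.0112 and 0.0775, so the numbers were not taken to pair the samples. TPM keeps no depth, so the precision of low genes such as Lpl, Apod and Apoc1 is unknown.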
